A study of Mus musculus with 9 samples.

Results

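Cells of the adult mouse dentate gyrus that had been differentiating for 2 days (early differentiation) were compared with proliferating neurospheres (proliferation). The comparison was taken by the stage named in the sample titles, which gave 6 of the 9 arrays of the study, 3 per stage. It covers every probe detected at a p-value under 0.05 on at least 3 of these 6 arrays, with 1 probe per gene, and so 10469 of the 19057 genes listed on the array. The remaining 3 arrays, from 7 days of differentiation, entered the fit only to share its estimate of the spread between arrays.

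Both groups were primary cultures of neural stem and progenitor cells from the hippocampus of C57BL6 mice, in the methods adult males of C57BL/6-NCrl, and the labels name no transgene and no drug. The early differentiation cells had been dissociated, plated on coated dishes, kept for some days in medium with EGF, bFGF and heparin, and then given differentiation medium without added EGF and bFGF for 2 days. The proliferation cells were floating spheres in the medium with EGF and bFGF. Attachment, medium and stage therefore cannot be told apart, and neither can BeadChip and stage, because the early arrays lay on 1 BeadChip and the proliferation arrays on another. The labels call the arrays of a stage biological replicates without naming animals, so the p-values measure the spread between these arrays.

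Neural stem cells held in EGF and FGF keep dividing as spheres, and the removal of both factors lets them leave the cell cycle and take up astrocytic, neuronal or oligodendrocytic fates. In dividing cells the transcription of cell cycle genes runs in waves. E2F factors drive the genes of DNA replication at the G1/S boundary, and the MuvB complexes DREAM and B-MYB-MuvB act on mitotic genes through a promoter element called CHR, often beside CCAAT boxes. RFX factors and Foxj1 drive the genes of cilia, and the complex ISGF3 binds the element ISRE in interferon-stimulated genes.

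Promoter stretches of 8 genes that the results turn on are printed here, each 100 bases long and lying before the annotated start of the gene, read 5′ to 3′ on its own strand, from RefSeq on GRCm38.p6. The first set comes from mitotic genes that fell, with CHR (TTTGAA or TTCGAA) and CCAAT on either strand in capitals: Cdc20 from chr4:118437344-118437443 on the minus strand, Plk1 from chr7:122159335-122159434 on the plus strand and Cdca8 from chr4:124936918-124937017 on the minus strand.
Cdc20: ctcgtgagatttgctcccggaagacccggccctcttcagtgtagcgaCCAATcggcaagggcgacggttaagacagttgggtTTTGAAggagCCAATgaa
Plk1: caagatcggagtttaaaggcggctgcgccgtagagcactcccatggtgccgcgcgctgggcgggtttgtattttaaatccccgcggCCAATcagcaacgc
Cdca8: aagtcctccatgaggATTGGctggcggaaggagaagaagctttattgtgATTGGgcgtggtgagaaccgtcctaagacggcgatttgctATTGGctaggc
The CHR match of Cdc20 began 18 bases before the gene start and lay between CCAAT boxes at 53 and 8 bases before it, and Cdca8 had 3 CCAAT boxes read on the opposite strand, as ATTGG. The CHR matches of Plk1 and Cdca8 lay outside the stretches shown.

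The second set holds a replication gene that fell, with E2F matches (TTTCGCGC or TTTGGCGC, either strand) in capitals, 2 cilia genes that rose, with the core of the RFX site, GTTGCC on either strand, in capitals, and 2 interferon-stimulated genes that rose, with ISRE (GAAA, any 2 bases and GAAA, either strand) in capitals. Mcm5 is from chr8:75109329-75109428 on the plus strand, Enkur from chr2:21205366-21205465 on the minus strand, Dynlrb2 from chr8:116504915-116505014, Ifit3 from chr19:34583349-34583448 and Gbp2 from chr3:142620563-142620662, each of the last 3 on the plus strand.
Mcm5: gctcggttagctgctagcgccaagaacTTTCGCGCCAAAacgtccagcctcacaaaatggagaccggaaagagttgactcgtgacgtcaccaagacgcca
Enkur: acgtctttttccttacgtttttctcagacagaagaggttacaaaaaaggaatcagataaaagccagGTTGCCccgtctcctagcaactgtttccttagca
Dynlrb2: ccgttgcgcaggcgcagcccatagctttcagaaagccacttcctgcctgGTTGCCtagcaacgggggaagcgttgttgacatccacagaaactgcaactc
Ifit3: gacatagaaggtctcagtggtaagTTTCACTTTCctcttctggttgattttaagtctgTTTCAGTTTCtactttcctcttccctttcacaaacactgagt
Gbp2: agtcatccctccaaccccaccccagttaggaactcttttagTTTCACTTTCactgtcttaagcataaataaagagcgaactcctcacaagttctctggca
In Mcm5 the capitals are 2 overlapping E2F matches on opposite strands, and in Ifit3 and Gbp2 ISRE is read on the opposite strand.

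Mean probe intensity was 163 ± 7.10 on the early arrays and 223 ± 4.91 on the proliferation arrays (SD, n = 3 each). Between 18644 and 19865 probes were detected on the early arrays and between 18604 and 18963 on the proliferation arrays. After normalisation between arrays a change is relative to the typical gene, and the median over all tested genes was -0.01 on the log2 scale. Without that normalisation the median was -0.45. Replicate 3 of either stage stood apart from the other replicates on the third principal component (-13.2 in early differentiation and -15.1 in proliferation, against 7.05 to 9.32 on the others), which carried 4.54% of the variance.

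Of the 10469 genes, 1840 rose (17.6%) and 1659 fell (15.8%) in early differentiation, by limma's adjusted p under 0.05 together with a change of 1.5-fold or more. Of these, 216 rose and 205 fell by more than 4-fold. For 1823 of the rises and 1648 of the falls every early array lay beyond every proliferation array, as it did for 63.2% of all genes tested. Rises made up 52.6% of the calls. Without normalisation between arrays 803 genes were higher and 4314 lower, so that rises were 15.7% of the calls, and all 1659 falls were called again whereas 803 of the 1840 rises were. For gene lists, the counts without normalisation are given where they turn the balance between rises and falls, and for some lists that they move without turning. The counts of each list are to be read against the shares over all tested genes, 17.6% higher and 15.8% lower. A gene detected on no array of a group has only a bound there, written as at least so many fold, which sets the mean of the other group against, on each array, the higher of the lowest detected signal and the signal of the probe itself. Of the rises 142 were detected on no proliferation array, and of the falls 103 were detected on no early array. These genes passed the filter only through the group where they were higher. They are called by the fitted change, and for some the bound was below 1.5-fold, such as Jag1 (at least 1.40-fold lower). Since the arrays measured bulk RNA, fewer cells of a type and less of an RNA per cell cannot be told apart.

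The gene that rose most was Ahnak, which encodes a giant scaffold protein at the plasma membrane. Its normalised log2 intensity was 10.50, 10.46 and 10.65 on the early arrays, against 4.36, 4.29 and 4.90 on the proliferation arrays. It was near the limit of detection in proliferation, where 1 of 3 arrays detected it, and its log2 fold change was 6.02 ± 0.16 (SE; adjusted p = 4.13e-09 in limma). Gfap, the intermediate filament of astrocytes and of radial glia-like stem cells, was at 11.39, 11.09 and 9.85 in early differentiation and at 5.40, 5.21 and 4.96 in proliferation. Replicate 3 was the lowest array for Gfap in either group, the groups were far apart all the same, and the change was 5.59 ± 0.36 (adjusted p = 5.6e-07). Hspb8, a small heat shock protein, was at 12.53, 12.12 and 12.02 in early differentiation and at 7.46, 8.04 and 6.99 in proliferation (4.72 ± 0.23). Nrbp2, a pseudokinase gene, was at 11.26, 11.44 and 11.70 in early differentiation, against 6.81, 6.90 and 6.84 in proliferation (4.62 ± 0.12). The 3 values of Nrbp2 were close together in either group. A further 4 genes were detected on no proliferation array. Psd2, an exchange factor for the small GTPase ARF6, was at least 30.7-fold higher, the extracellular nucleotidase gene Entpd2 at least 20.2-fold, the secreted matrix protein gene Ucma at least 19.5-fold and the TNF receptor adaptor gene Traf1 at least 19.3-fold. The long non-coding RNA Miat (4.67 ± 0.24), the neuronal ubiquitin ligase subunit gene Fbxo2 (4.48 ± 0.14), Igfbp5 (4.54 ± 0.24) and Prune2 (4.14 ± 0.37) completed the 12 largest rises.

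Of the 12 largest falls, 8 were genes of mitosis. Pbk, a mitotic kinase, was at 4.41, 4.66 and 4.62 in early differentiation, against 9.82, 9.93 and 9.85 in proliferation (-5.30 ± 0.14; adjusted p = 4.13e-09). Cdc20, the activator of the anaphase-promoting complex, was at 4.84, 4.90 and 5.02 on the early arrays and 9.43, 9.62 and 9.97 on the proliferation arrays (-4.76 ± 0.23). The early values of both genes lay near the floor of the scale, where fold changes are compressed, and the groups were more than 4 log2 units apart. Prc1 (-4.63 ± 0.28) and Kif23 (-4.29 ± 0.14) build the central spindle, Plk1 (-4.57 ± 0.14) is the polo-like kinase, Cdca3 (-4.51 ± 0.21) triggers entry into mitosis, Cenpa (-4.38 ± 0.16) is the histone of centromeres and Cdca8 (-4.36 ± 0.16) is a subunit of the chromosomal passenger complex. The other four were the matrix protein gene Tnc, the vesicle GTPase gene Rab26 (-5.05 ± 0.19), Igfbp3 and Ccnd1. Ccnd1, which encodes cyclin D1 and is induced by mitogens, was at 8.97, 9.05 and 9.50 in early differentiation, against 13.22, 13.27 and 13.49 in proliferation (-4.15 ± 0.16), and it remained well above the floor. Kif23 had further probes that did not all move alike. Its second brightest probe was not called (0.04 ± 0.12), and another fell (-3.59 ± 0.12). Without 1 of the proliferation arrays the second probe became the brightest, and the value was then -0.05, 0.02 or 0.16 without replicate 1, 2 or 3.

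**Figure D1:**
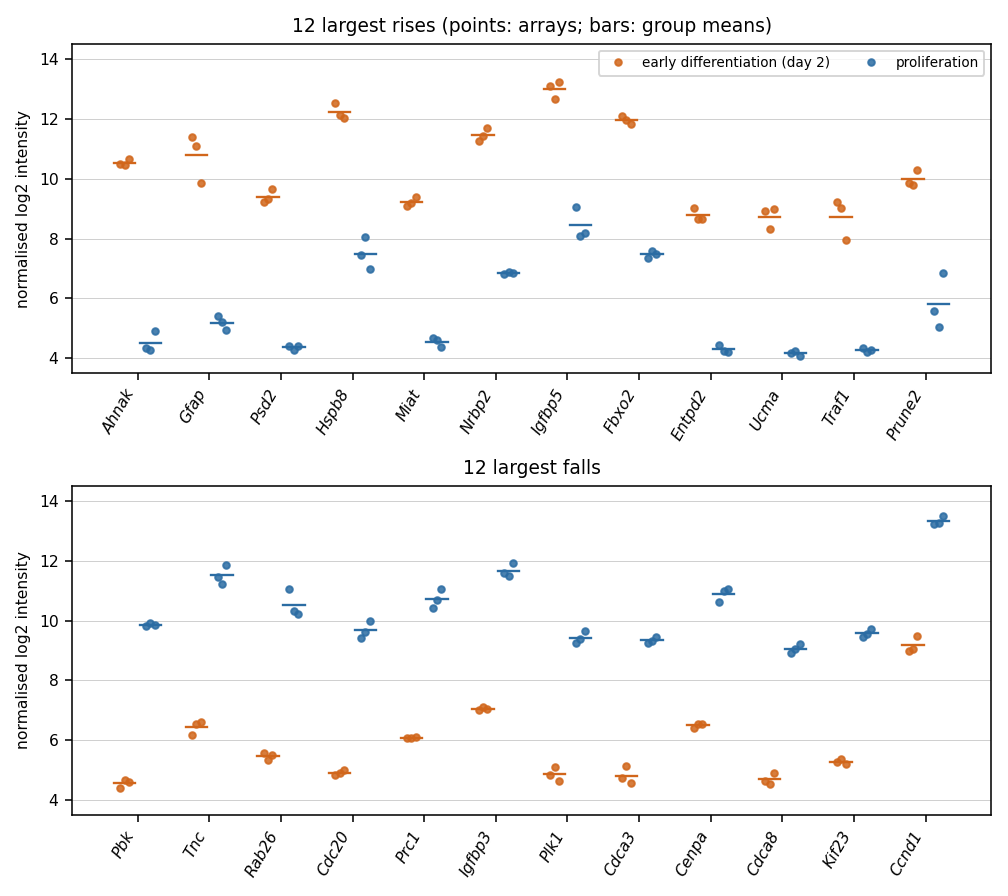
Normalised log2 intensity (vertical axis) of the 12 genes with the largest rises (top) and the 12 with the largest falls (bottom), with early differentiation left of proliferation for each gene. Points are the 3 arrays of a group and bars are group means. The 24 genes were chosen among those whose groups do not overlap.

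Genes that report on EGF and FGF signalling fell together. Of 16 tested feedback and target genes of the pathway 11 fell and 0 rose, with a median of -1.06. Dusp6, the phosphatase that turns off ERK, was at 8.13, 8.03 and 8.08 in early differentiation, against 11.88, 12.16 and 11.91 in proliferation (-3.91 ± 0.21; adjusted p = 1.41e-07). The ERK inhibitor Spry4 (-3.15 ± 0.13, detected on 1 of 3 early arrays), the ETS factor gene Etv5 (-2.84 ± 0.22) and the phosphatase gene Dusp4 (-2.64 ± 0.14) followed. Emp1, also on the list, was not called (0.97 ± 0.67). It was high in replicate 3 of proliferation at 8.32, against 5.24 and 5.45 in the other replicates. Of the receptors themselves, Egfr was at 10.28, 10.20 and 10.31 in early differentiation and 10.45, 10.31 and 10.30 in proliferation, overlapping and not called (-0.09 ± 0.10), and Fgfr1 was not called either (-0.31 ± 0.12), while Fgfr2 (0.86 ± 0.20) and Fgfr3 (0.63 ± 0.11, which missed 1.5-fold without early replicate 1 at 0.58 or replicate 2 at 0.58) rose. Of 19 receptor tyrosine kinases 6 rose and 3 fell, led by the BDNF receptor gene Ntrk2 (1.74 ± 0.11), the Gas6 receptor gene Axl (1.54 ± 0.19) and the collagen receptor gene Ddr1 (1.53 ± 0.15); without normalisation between arrays 4 were higher and 5 lower. Of 17 immediate early genes 2 rose and 3 fell (11.8% and 17.6%), near the 17.6% and 15.8% of all tested genes. Fos rose (2.04 ± 0.42), Atf3 was at least 2.85-fold higher and detected on no proliferation array, and the neuronal activity gene Arc (-1.82 ± 0.19), the MAP kinase phosphatase gene Dusp1 (-1.73 ± 0.37) and Jun (-0.74 ± 0.16, and -0.57 and below 1.5-fold without proliferation replicate 3) fell.

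The lists of the cell cycle machinery held far more falls than rises. Among cyclins, their kinases and the E2F factors 19 of 23 genes fell and 1 rose, with a median of -1.0. Cdk1, the kinase of mitotic entry, was at 4.59, 4.89 and 4.96 in early differentiation, against 8.60, 8.74 and 9.04 in proliferation (-3.98 ± 0.16). E2f1 (-2.52 ± 0.13), the pocket protein gene Rbl1 (-2.43 ± 0.15) and Foxm1 (-2.22 ± 0.14), the factor that drives mitotic genes, fell as well. The 1 member that rose was Rb1, the retinoblastoma protein that holds E2F back (0.98 ± 0.10). It was at 9.96, 9.90 and 9.86 on the early arrays, against 9.0, 8.91 and 8.86 on the proliferation arrays, although without normalisation between arrays its change was 0.31. The D cyclins differed. Ccnd2 fell (-1.34 ± 0.25) and Ccnd3 was not called (-0.10 ± 0.14), beside the fall of Ccnd1. Genes of cell cycle exit were called near the shares of all tested genes, 12.5% higher and 12.5% lower against 17.6% and 15.8%. Of 16 CDK inhibitors and related genes 2 rose, Gadd45b (0.80 ± 0.23, not called without early replicate 1 at 0.66 or replicate 2 at 0.72) and Ccng2 (0.76 ± 0.13), and 2 fell, Cdkn2d (-1.10 ± 0.11) and Gadd45a (-1.09 ± 0.16), and without normalisation between arrays 1 was higher and 6 were lower. The genes of p21, p27 and p57 were not called: Cdkn1a was at -0.37 ± 0.13, Cdkn1b at 0.26 ± 0.48 and Cdkn1c at 0.21 ± 0.24.

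Origin licensing and replication fork genes fell in 30 of 42 cases, with a median of -1.23. Uhrf1, which brings the maintenance DNA methyltransferase to replicated DNA, was lowest (-3.52 ± 0.16). Mcm5, a subunit of the replicative helicase, was at 6.12, 6.22 and 6.01 in early differentiation, against 9.15, 9.51 and 9.57 in proliferation (-3.30 ± 0.13). Mcm10 (-3.23 ± 0.14), the licensing factor gene Cdt1 (-2.97 ± 0.09) and the chromatin assembly gene Chaf1b (-2.92 ± 0.13) were next. Orc3, a subunit of the origin recognition complex, went the other way (1.19 ± 0.13), at 6.65, 6.91 and 6.86 on the early arrays, against 5.69, 5.81 and 5.35 on the proliferation arrays. Enzymes that supply nucleotides fell in 20 of 29 cases and rose in 0. Thymidine kinase Tk1 was detected on no early array by its brightest probe and was at least 15-fold lower by it. A dimmer probe of Tk1 fell less (-1.14 ± 0.10), and it stood for the gene when proliferation replicate 1 (-1.18), 2 (-1.11) or 3 (-1.08) was left out, since the brightest probe was then detected on too few arrays. In the same list the mitochondrial folate enzyme Mthfd2 (-3.50 ± 0.12), the ribonucleotide reductase subunit Rrm2 (-3.04 ± 0.14) and thymidylate synthase Tyms (-2.04 ± 0.13) fell. DNA repair and checkpoint genes fell in 18 of 32 cases, led by the checkpoint mediator Clspn (-3.14 ± 0.18) and the uracil glycosylase Ung (-2.57 ± 0.17), and the damage sensor Xpc rose (0.59 ± 0.12), by less than 1.5-fold when early replicate 2 (0.56) or 3 (0.58), or proliferation replicate 1 (0.57) or 2 (0.53), was left out. Among histone genes and chaperones 5 of 14 fell, including the variants H2ax (-2.17 ± 0.13) and H2az1 (-2.06 ± 0.10).

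Mitosis showed the largest list-wide change, a median of -2.70. Of the 31 kinases, spindle checkpoint and anaphase genes 29 were called lower and 0 higher. Beside those named above, topoisomerase Top2a was at -3.95 ± 0.17, and the Aurora kinase gene Aurka, at 4.99, 4.97 and 5.11 in early differentiation, against 8.28, 8.56 and 9.06 in proliferation, was at -3.61 ± 0.17. The securin gene Pttg1 (0.20 ± 0.17) and the kinetochore gene Spc24 (0.56 ± 0.16) were not called. Condensin, cohesin and centromere genes fell in 21 of 31 cases. The cohesin acetyltransferase Esco2, detected on no early array, was at least 8.40-fold lower. The condensin subunit gene Ncaph was at -3.20 ± 0.11 and the centromere protein gene Cenpw at -2.89 ± 0.13, whereas the cohesin subunit gene Stag1 rose (0.76 ± 0.12). Kinesin motors moved both ways. Of 27 tested motor genes 11 fell. Of the 5 largest falls, Kif23 builds the central spindle, the depolymerase gene Kif2c was at least 10.2-fold lower and Kif4 at least 8.65-fold, each detected on no early array, and Kif22 (-3.34 ± 0.16) and Kif15 (-2.82 ± 0.10), like Kif4, work on mitotic chromosomes or the spindle. The 6 that rose were led by the axonal motor gene Kif21a (2.14 ± 0.23), the ciliary motor genes Kif27 (1.24 ± 0.20) and Kif9 (at least 1.86-fold higher, detected on no proliferation array), and Kif1b (0.96 ± 0.13) and Kif1c (0.96 ± 0.12), which move cargo along microtubules.

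Promoter windows of 300 bases, 250 before and 50 after the start, were found by symbol for 8527 of the 10469 genes. A CHR match lay in 18 of 25 windows of the mitosis list (72%). Of these 25 windows 24 belonged to genes that fell. The share was 12.6% among all genes that rose, 17.2% among those that fell and 19.4% among all 27025 windows. CCAAT lay in 16 of the 25 (64%), and in 37.9% of all windows. E2F matches lay in 8 of 35 windows of the replication list (22.9%), against 1.01% of genes that rose, 3.01% of genes that fell and 0.833% of all windows. Of those 8 replication genes 6 fell (Cdt1, Mcm3, Mcm5, Mcm6, Mcm7 and Rfc3) and 2 were not called (Orc1 and Pole2). The RFX core lay in 23 of 46 windows of the cilia list (50%) and in 12.7% of all windows. Among cilia genes 18 of 34 that rose and 5 of 10 that were not called had it. For ISRE the shares were 53.8% of 26 interferon-stimulated genes and 3.49% of all windows, with a match in 4 of 9 that rose and in 10 of 17 that were not called. The strings searched for SREBP (TCACCCCAC or TCACCCGAC, either strand) lay in 0 of 24 windows of the cholesterol and fatty acid synthesis list and in 0.618% of all windows. Shares of the other motifs searched are not given. A match is a string of letters and was not tested as a site.

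**Figure D2:**
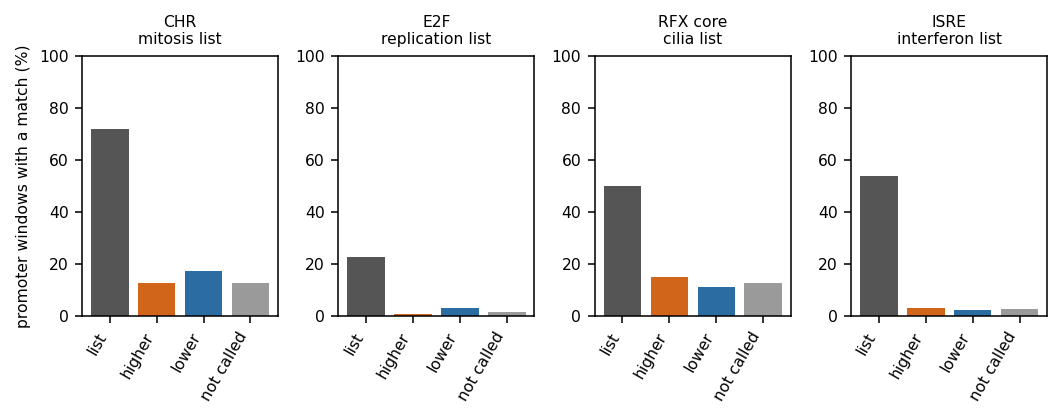
Percent of promoter windows with a match (vertical axis) for 4 motifs, in the gene list named above each panel (tested genes) and in all tested genes that were higher, lower or not called in early differentiation. The list bars stand at 72.0, 22.9, 50 and 53.8%, above the 3 other bars of their panel.

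The genes of growth and biosynthesis fell by smaller steps. Of 40 Myc and ribosome biogenesis genes 22 fell and 4 rose. The box C/D snoRNP proteins Nop58 (-1.82 ± 0.21) and Nop56 (-1.47 ± 0.15) and the rRNA methyltransferase Nop2 (-1.35 ± 0.10) fell most. The 4 that rose were all genes of the Myc and Mad network, Mycl (1.09 ± 0.19) and the Myc antagonists Mxi1 (0.94 ± 0.11), Mxd1 (0.81 ± 0.11) and Mxd4 (0.72 ± 0.11). Myc itself was not called (-0.30 ± 0.14). Without normalisation between arrays 0 of the list were higher and 34 lower. Cytosolic ribosomal protein genes fell in 27 of 46 cases with a median of -0.65, and in 44 without normalisation between arrays. Rpl13a was at -2.0 ± 0.17 and Rpl12 at -1.32 ± 0.12, and Rpl23 alone rose (0.97 ± 0.16). The family has many processed copies that probes may share, which was not tested for the genes that fell or for Rpl23. Subunits of oxidative phosphorylation fell in 13 of 49 cases and rose in 0. The other 36 were not called, but without normalisation between arrays 45 of the 49 were lower. The median was -0.41, and cytochrome c, encoded by Cycs (-1.53 ± 0.12), fell most. Of 31 tRNA synthetases and ATF4-dependent genes 11 fell, including Atf4 itself (-1.15 ± 0.12), the synthetases Vars (-1.28 ± 0.13) and Iars (-1.2 ± 0.11) and the asparagine synthetase Asns (-1.04 ± 0.11), and 3 rose, the arginine transporter Slc7a3 (1.19 ± 0.14), the glutathione-degrading enzyme Chac1 (0.96 ± 0.19) and the serine synthesis enzyme Phgdh (0.62 ± 0.15), the last not called without early replicate 2 (0.54) or proliferation replicate 3 (0.56).

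Cholesterol synthesis fell at many of its steps. Of 30 genes of cholesterol and fatty acid synthesis 19 fell, 0 rose and the median was -0.76. Fdps, which makes farnesyl diphosphate, was at 7.76, 8.07 and 7.44 in early differentiation, against 10.76, 10.66 and 10.37 in proliferation (-2.84 ± 0.16). The elongase Elovl6 (-2.51 ± 0.15), the sterol sensor Insig1 (-2.25 ± 0.24), lanosterol synthase Lss (-2.16 ± 0.12) and lanosterol demethylase Cyp51 (-2.11 ± 0.16) fell, as did Srebf2, the factor that drives the pathway (-0.99 ± 0.16). Genes of the fatty acid side were called lower in part, with Elovl6, malic enzyme Me1 (-0.83 ± 0.11) and citrate lyase Acly (-0.78 ± 0.11) among the falls. Fatty acid synthase Fasn was at 0.06 ± 0.13, Srebf1 at -0.28 ± 0.19 and the desaturase Scd2 at 0.12 ± 0.13, none of them called. Of 34 genes of fatty acid oxidation and lipid handling 9 rose and 7 fell, and without normalisation between arrays 3 were higher and 12 lower. The lipoprotein Apoe was at 12.01, 12.02 and 11.49 on the early arrays, against 8.90, 8.45 and 8.32 on the proliferation arrays (3.28 ± 0.22), and the mitochondrial oxidation enzymes Acaa2 (1.28 ± 0.09) and Acadm (1.27 ± 0.13) rose. The fatty acid binding proteins Fabp5 (-2.56 ± 0.28) and Fabp3 (-1.12 ± 0.27) fell, with Fabp7, a marker of radial glia, at -0.90 ± 0.12. In glycolysis and the hypoxia response 7 of 29 genes rose and 8 fell. The astrocytic aldolase Aldoc (1.32 ± 0.13) and the glucose transporter Slc2a1 (1.2 ± 0.24) rose, and the lactate dehydrogenase subunit Ldha (-1.23 ± 0.13), Vegfa (-1.39 ± 0.15), adrenomedullin (Adm, -1.81 ± 0.31) and pyruvate kinase Pkm (-0.96 ± 0.11) fell.

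**Figure D3:**
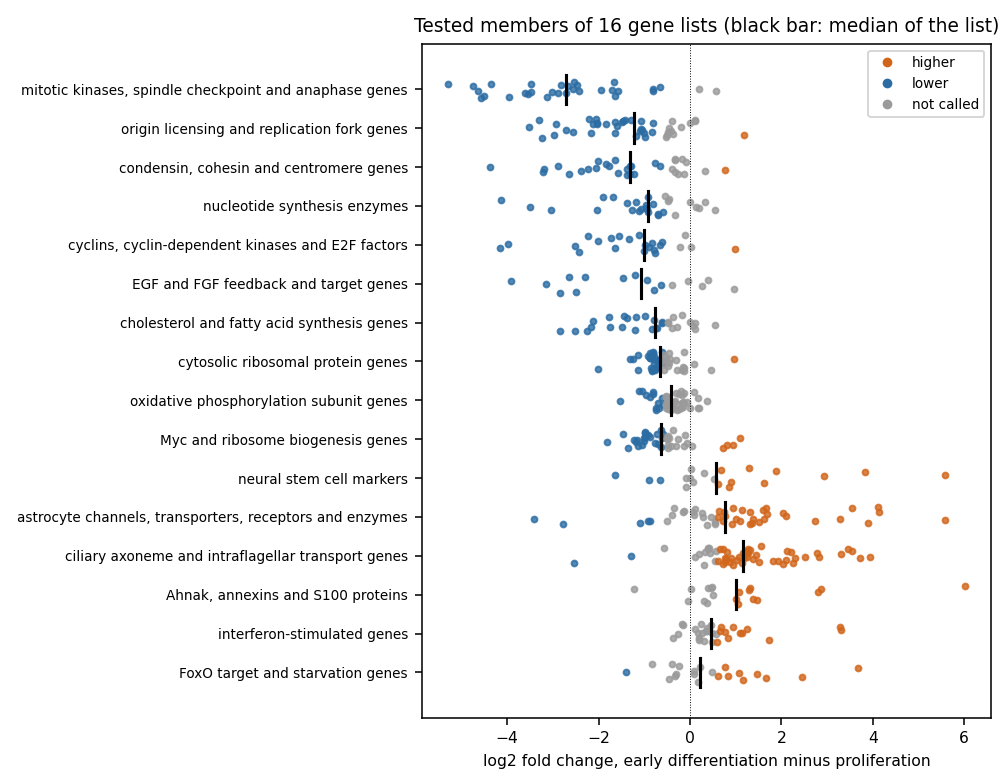
Log2 fold change, early differentiation minus proliferation (horizontal axis), of every tested gene of 16 gene lists, 1 point per gene, coloured by call, with a black bar at the median of each list. The cell cycle lists run to the left, as far as Pbk at -5.30, and the astrocyte, cilia and annexin lists run to the right, as far as Ahnak at 6.02.

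Of 10 genes of the insulin-like growth factor system 2 rose and 6 fell, the binding proteins among them with large changes in both directions. These secreted proteins bind IGF1 and IGF2 and hold them from, or bring them to, their receptor. Igfbp5 was at 13.08, 12.65 and 13.22 in early differentiation, against 9.05, 8.08 and 8.19 in proliferation (4.54 ± 0.24). Igfbp7 rose with it (2.22 ± 0.33). Igfbp3 was at 7.00, 7.12 and 7.04 on the early arrays, against 11.58, 11.49 and 11.92 on the proliferation arrays (-4.61 ± 0.21). Igfbp2 was at 7.72, 7.78 and 7.71 in early differentiation and 11.68, 11.73 and 11.40 in proliferation (-3.87 ± 0.37), and Igfbp4 at 8.11, 7.90 and 8.11 in early differentiation and 11.72, 11.90 and 11.12 in proliferation (-3.54 ± 0.18). The groups did not overlap for any of the 5 genes. Stc1, whose product inhibits the protease that frees IGF from its binding proteins, fell too (-2.64 ± 0.16), and the receptor gene Igf1r was not called (-0.18 ± 0.10).

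Genes of the extracellular matrix also changed in both directions. Tenascin C, encoded by Tnc and a mark of the stem cell niche, was at 6.18, 6.54 and 6.63 in early differentiation, against 11.47, 11.21 and 11.87 in proliferation (-5.07 ± 0.21; adjusted p = 3.76e-08). Of 27 genes of tenascins, lecticans and their partners 7 fell, among them the lecticans Ncan (-1.68 ± 0.17) and Vcan (-0.80 ± 0.16). The link protein gene Hapln4, detected on no early array, was at least 2.36-fold lower. The 3 that rose were the matrilin gene Matn4 (3.19 ± 0.40), the astrocyte protein gene Sparcl1 (1.31 ± 0.27) and the syndecan gene Sdc2 (1.29 ± 0.16). Matn4 varied between the early arrays (8.52, 8.11 and 6.63), all above the 4.72, 4.52 and 4.43 of the proliferation arrays, and the change was 3.79 without early replicate 3. Of 25 collagens, laminins and related genes 7 rose and 4 fell, and without normalisation between arrays 4 were higher and 8 lower. Col18a1 (-3.44 ± 0.32), Col16a1 (-1.74 ± 0.16) and Lama5 (-1.72 ± 0.16) fell, while the basement membrane protein Nid2 (2.86 ± 0.15), Col22a1 (2.67 ± 0.17) and Lamb2 (1.45 ± 0.24) rose. Of 32 integrins, metalloproteinases and inhibitors 10 rose and 11 fell. Itga3, a chain of a laminin receptor, rose (2.33 ± 0.29), and Itgb1 (-1.26 ± 0.12) and Itgav (-1.14 ± 0.20) fell. Of the inhibitors of metalloproteinases Timp2 (2.09 ± 0.14) and Timp3 (1.16 ± 0.18) rose and Timp4 (-2.77 ± 0.33) and Timp1 (-2.17 ± 0.34) fell, and the sheddase Adam12 fell furthest (-3.89 ± 0.12, detected on 1 of 3 early arrays). Of 19 genes of Ahnak, annexins and S100 proteins, which bind calcium and act in membrane repair, 10 rose and none fell, including S100a6 (2.86 ± 0.41), the membrane repair gene Dysf (2.81 ± 0.23) and the annexins Anxa5 (1.48 ± 0.22), Anxa11 (1.32 ± 0.15) and Anxa4 (1.30 ± 0.18). Anxa2, the annexin that binds Ahnak, was not called (0.39 ± 0.23).

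**Figure D4:**
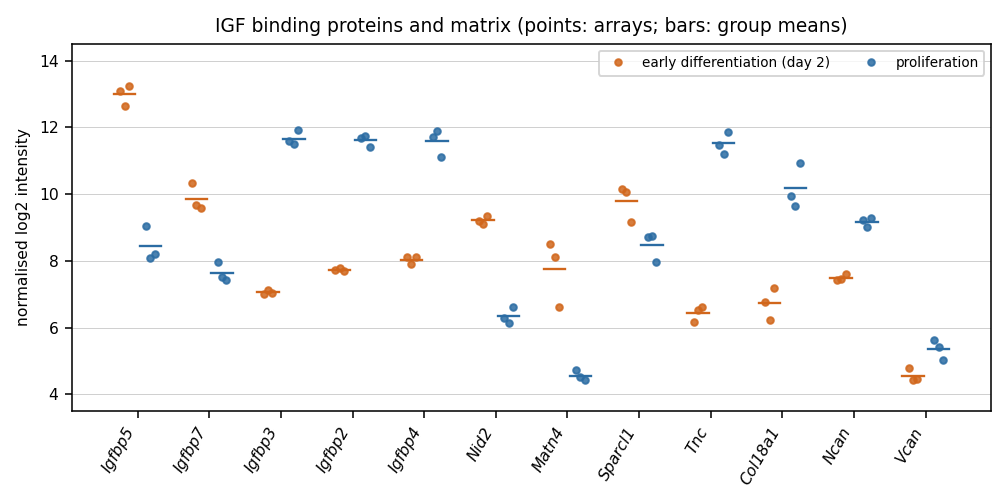
Normalised log2 intensity (vertical axis) of 5 IGF binding protein genes and 7 matrix genes, with early differentiation left of proliferation for each gene. Points are the 3 arrays of a group and bars are group means. Igfbp5, Igfbp7, Nid2, Matn4 and Sparcl1 are higher in early differentiation and the other 7 are lower.

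Astrocyte genes rose in 28 of 47 cases and fell in 5, with a median of 0.77; without normalisation between arrays 16 were higher and 8 lower. The water channel gene Aqp4 was at 8.54, 9.43 and 8.95 in early differentiation, against 4.85, 4.60 and 5.04 in proliferation (4.14 ± 0.36). The neurotensin receptor gene Ntsr2 was at 9.75, 9.41 and 9.46 in early differentiation and 5.71, 5.19 and 5.37 in proliferation (4.12 ± 0.16), and Id4, an inhibitor of neuronal bHLH factors, was at least 12.3-fold higher and detected on no proliferation array. Among genes often used to mark mature astrocytes Aldoc, Gja1, Mlc1 (1.67 ± 0.16) and Atp1b2 (1.38 ± 0.19) rose, with Aqp4, while others were not called. The glutamate transporter Slc1a2 was at 0.55 ± 0.19, glutamine synthetase Glul at 0.28 ± 0.17, S100b at 0.38 ± 0.15 and Aldh1l1 at 0.10 ± 0.21. The largest falls of the list were Grm5, a glutamate receptor of young astrocytes (-3.42 ± 0.31), and Timp4.

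Among markers of neural stem cells rises outnumbered falls. Of 20 tested 10 rose and 3 fell, and without normalisation between arrays 7 were higher and 6 lower. The list shares genes with the astrocyte list, among them Gja1 and its largest rise, Gfap (5.59 ± 0.36), so the rises of the lists are not separate. Hopx, a gene of quiescent stem cells, was at 9.89, 9.53 and 7.72 in early differentiation, against 5.39, 5.42 and 4.87 in proliferation (3.82 ± 0.56), with replicate 3 the lowest of the early arrays (4.50 without it). Prom1, detected on no proliferation array, was at least 6.32-fold higher, and Sox9 (1.89 ± 0.10), Gja1 (1.62 ± 0.10) and Msi1 (1.29 ± 0.25) rose. Sox2, the stem cell factor that the study used to mark proliferation, was at 6.95, 7.12 and 6.91 on the early arrays, against 6.23, 6.22 and 6.47 on the proliferation arrays, and rose (0.69 ± 0.16; adjusted p = 0.00462); without normalisation between arrays it was at 0.12. Nes, which encodes nestin, fell (-0.66 ± 0.14), as did the Notch effector Hes1 (-1.64 ± 0.12) and Fabp7 (-0.90 ± 0.12). Lmnb1, the lamin B1 gene, was the filament gene that fell most (-3.43 ± 0.16), and vimentin rose (0.85 ± 0.16).

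Cilia genes formed the list with the highest share of rises, 42 of 55 (76.4%) with 2 falls, and 29 of them were also higher without normalisation between arrays. Enkur, a protein of the motile axoneme, was at 8.56, 8.18 and 8.43 in early differentiation, against 4.29, 4.50 and 4.55 in proliferation (3.95 ± 0.12; adjusted p = 6.68e-09). Nme5 (3.72 ± 0.14), Fam183b (3.46 ± 0.27) and the dynein light chain gene Dynlrb2 (3.30 ± 0.15) rose, and the radial spoke gene Rsph4a was at least 9.81-fold higher and detected on no proliferation array. Foxj1, the master factor of motile cilia, was at 6.16, 6.04 and 5.92 on the early arrays, against 4.65, 4.65 and 4.66 on the proliferation arrays (1.39 ± 0.11), and Rfx2 rose as well (2.78 ± 0.19). The axonemal dynein gene Dnah11 (-2.55 ± 0.13) and the polycystin gene Pkd1 (-1.29 ± 0.20) fell.

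Oligodendrocyte genes moved both ways. Of 21 progenitor genes 8 rose and 8 fell. Nkx2-2 (-1.78 ± 0.23), the kinase gene Fyn (-1.84 ± 0.15), Olig2 (-1.14 ± 0.13, detected on 1 of 3 early arrays) and Olig1 (-0.96 ± 0.18) fell. Gpr17, a receptor of cells about to mature, was at least 2.90-fold higher and Sox10 at least 1.38-fold, each detected on no proliferation array, and the PDGF receptor gene Pdgfra rose (1.23 ± 0.19). Pdgfra was near background, with intensities of at most 115 on the early and 92.3 on the proliferation arrays, where the background was 77.2 and 84.0. Summed over 27 progenitor markers, intensity before normalisation was 7794 to 9466 in early differentiation and 17788 to 20218 in proliferation. Of 15 myelin genes 5 rose, such as Cnp (1.75 ± 0.23) and the deacetylase gene Sirt2 (1.63 ± 0.10), and 3 fell. Transferrin (Trf) was the largest fall (-3.10 ± 0.72), with values of 8.52, 6.42 and 7.35 in early differentiation and 11.34, 9.69 and 10.55 in proliferation that differed by over 1.5 log2 units within either group and did not overlap.

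Neuronal genes gave no common direction. Young neuron genes were 23.7% higher and 13.2% lower, near the 17.6% and 15.8% of all tested genes. Of 38 genes of young neurons 9 rose and 5 fell, with a median of 0.04, and without normalisation between arrays 8 were higher and 12 lower. Reln, the secreted reelin, was at 9.23, 9.75 and 9.61 in early differentiation, against 5.36, 6.13 and 6.34 in proliferation (3.59 ± 0.31). Igfbpl1 (3.4 ± 0.18), the collapsin response mediators Dpysl5 (2.61 ± 0.19) and Dpysl4 (1.53 ± 0.15) and tau, encoded by Mapt (1.51 ± 0.28), rose. Dclk1 (-2.56 ± 0.13), the growth cone gene Gap43 (-1.76 ± 0.19), and Sox11 (-1.72 ± 0.10) fell. Dcx, the marker of young neurons used in the study, did not pass the filter. Its 4 probes were detected on 0 to 2 early arrays and on no proliferation array. Of 43 synaptic genes 9 rose and 12 fell. The AMPA receptor subunit Gria1 (3.08 ± 0.30) and the calcium sensor Syt7 (2.74 ± 0.17) rose, and Rab26 and the vesicle GTPase Rab3b (-2.70 ± 0.31) fell most. Of 38 channel genes 10 rose and 9 fell, and without normalisation between arrays 4 were higher and 12 lower. The potassium channel gene Kcna6 rose most (3.29 ± 0.22), and Kcnc4 fell most (-2.08 ± 0.51, and -2.83 without proliferation replicate 3). Of 22 transporters of amino acids and neurotransmitters 9 rose and 3 fell, and without normalisation between arrays 3 were higher and 3 lower. The glutamine transporter gene Slc38a1 (2.12 ± 0.29) and the glycine transporter gene Slc6a9 (1.6 ± 0.14) rose, and the taurine transporter gene Slc6a6 (-2.25 ± 0.34) fell. Axon guidance genes were called 7 times higher and 7 times lower among 34, with Sema6d (1.96 ± 0.14) and Robo1 (-1.22 ± 0.10) at the ends, and without normalisation between arrays 5 were higher and 10 lower. The guidance shares, 20.6% each way, lay near those of all tested genes. Among 35 cadherins and other adhesion genes 5 rose (14.3%), led by Celsr1 (1.86 ± 0.11), and 8 fell (22.9%), led by Pcdh7 (-1.90 ± 0.17).

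Markers of other cells that a hippocampal culture could hold were scarce. None of the 14 microglial markers on the array was detected on all 3 arrays of either group, and their summed intensity was 1079 to 1107 in early differentiation and 1165 to 1207 in proliferation. This is about what 14 probes at background give, since the background was 77.2 per probe on the early arrays and 84.0 on the proliferation arrays. Of 17 endothelial and mural markers 3 were detected on all early arrays and 4 on all proliferation arrays, and Acta2, the smooth muscle actin gene, was the one that rose (2.70 ± 0.36). It was at 7.47, 8.73 and 8.28 on the early arrays, against 5.44, 5.89 and 5.05 on the proliferation arrays. Of 14 fibroblast markers 5 were detected on all early arrays and 3 on all proliferation arrays. Pdgfra and Ogn (1.15 ± 0.33) rose, and Fbln1 fell (-2.05 ± 0.28), whereas without normalisation between arrays 1 fibroblast marker was higher and 2 were lower. The part of such cells in the changes of matrix genes was not tested.

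Interferon-stimulated genes rose in 12 of 30 cases and fell in none, and without normalisation between arrays 6 were higher and 3 lower. Ifit3 was at 8.96, 9.18 and 7.72 in early differentiation, against 5.44, 5.49 and 5.11 in proliferation (3.27 ± 0.31), and the GTPase gene Gbp2 at 9.6, 9.54 and 9.45 in early differentiation and 6.11, 5.85 and 6.71 in proliferation (3.31 ± 0.24). Samd9l (1.73 ± 0.23) and Oasl2 (1.24 ± 0.18) followed. Of 19 genes of MHC class I presentation 3 fell and 2 rose, H2-D1 (1.38 ± 0.20) and the peptide transporter Tap2 (0.96 ± 0.15). These shares, 10.5% higher and 15.8% lower, were not above the 17.6% and 15.8% of all tested genes. Of 28 genes of cytokine receptors and JAK-STAT signalling 8 rose and 3 fell, and without normalisation between arrays 5 were higher and 8 lower. Il6st, the shared receptor gp130, was at 8.75, 8.60 and 8.61 in early differentiation, against 6.42, 6.02 and 6.41 in proliferation (2.37 ± 0.15), and the oncostatin M receptor gene Osmr (1.90 ± 0.27), the interferon gamma receptor genes Ifngr2 (1.88 ± 0.21) and Ifngr1 (0.94 ± 0.12) and Jak1 (1.70 ± 0.20) rose. Socs5 fell (-1.57 ± 0.14), and Socs2 rose (1.31 ± 0.23). Of 30 acute-phase, complement and chemokine genes 10 rose and 7 fell, and without normalisation between arrays 5 were higher and 8 lower. The complement gene C4b rose (3.51 ± 0.11) together with C4a (3.56 ± 0.11), a near-identical copy whose probe may read the same RNA. Chil1 (2.48 ± 0.48) and the complement regulator Cd59a (2.89 ± 0.19) rose, the chemokine gene Cx3cl1 (-1.29 ± 0.25) and the receptor gene Tlr4 (-1.2 ± 0.28) fell, and Lcn2 was not called (-0.29 ± 0.74). The microglial markers named above were near background in either group.

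Genes of starvation and of FoxO factors rose in 9 of 21 cases and fell in 1; without normalisation between arrays 4 were higher and 6 lower. Txnip, which limits glucose uptake, was at 9.26, 9.48 and 9.34 in early differentiation, against 5.83, 6.35 and 4.87 in proliferation (3.68 ± 0.28). Pik3ip1, an inhibitor of PI3 kinase (2.46 ± 0.12), the mTORC1 restraint gene Sesn1 (1.66 ± 0.13) and the atrophy ligase gene Fbxo32 (1.46 ± 0.20) rose. Of lysosome and autophagy genes 16 of 45 rose and 7 fell, a balance that turned to 2 higher and 18 lower without normalisation between arrays. The protective protein Ctsa rose under both (2.81 ± 0.14, 2.32 without it). Of 24 genes of p53 targets and apoptosis 6 rose and 2 fell, and without normalisation between arrays 4 were higher and 6 lower. The proapoptotic genes Bcl2l11 (1.38 ± 0.13), Bmf (1.32 ± 0.16) and Bbc3 (1.30 ± 0.14) rose, and the initiator caspase gene Casp8 fell (-1.07 ± 0.19). Of 50 metallothionein, NRF2 and glutathione genes 12 rose and 8 fell, and without normalisation between arrays 5 were higher and 23 lower. The metallothioneins Mt2 (2.44 ± 0.20) and Mt3 (2.32 ± 0.23), which bind zinc, rose, and thioredoxin fell (Txn1, -1.71 ± 0.25). Of 50 heat shock proteins and chaperones 11 rose and 15 fell. The small heat shock proteins Hspb8, Cryab (1.98 ± 0.24) and Hspb6 (1.02 ± 0.24) rose, and the mitochondrial chaperonin pair Hspe1 (-1.17 ± 0.12) and Hspd1 (-1.09 ± 0.10) fell with the cytosolic chaperonin subunit Tcp1 (-1.15 ± 0.13).

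Notch and Wnt genes were called near the shares of all tested genes, which were 17.6% higher and 15.8% lower. For Notch the shares were 21.7% and 17.4%, and for Wnt 21.9% and 12.5%. Of 23 Notch genes 5 rose and 4 fell, and without normalisation between arrays 0 were higher and 7 lower. Hey1 (1.2 ± 0.16), the ligand gene Dner (1.26 ± 0.21) and Numb (0.98 ± 0.12) rose, and Nrarp (-2.40 ± 0.28), Hes1 and Notch3 (-0.72 ± 0.13) fell. The receptor Notch1 was at 0.00 ± 0.21 and not called. In the BMP and TGF-beta pathway 9 of 32 genes rose and 3 fell, and without normalisation between arrays 3 were higher and 10 lower. Id4, the BMP antagonist gene Nbl1 (1.98 ± 0.15), Fstl1 (1.40 ± 0.20) and the receptor gene Bmpr1b (1.05 ± 0.28) rose, and Ltbp1 (-2.16 ± 0.25), the ligand gene Bmp7 (-1.68 ± 0.14, detected on 1 of 3 early arrays) and Skil (-1.44 ± 0.18) fell. In the Wnt pathway 7 of 32 genes rose and 4 fell, and without normalisation between arrays 2 were higher and 10 lower. The receptor gene Fzd6 (1.5 ± 0.13) and the repressor gene Tcf7l1 (1.21 ± 0.17) rose, and the receptor genes Ror2 (-1.42 ± 0.19), Fzd1 (-1.18 ± 0.17) and Lgr5 (-1.06 ± 0.14) fell. The Hedgehog ligand gene Dhh fell (-2.45 ± 0.24), and the pathway genes Ptch1 (0.29 ± 0.16) and Gli2 (-0.15 ± 0.24) were not called. Of 41 transcription factors of stem cells 14 rose and 1 fell, and without normalisation between arrays 6 were higher and 10 lower. Sox9, Nfia (1.57 ± 0.15), which starts gliogenesis, Foxj1, Sox6 (1.32 ± 0.22) and Sox21 (1.24 ± 0.14) led the rises. Of 41 chromatin genes 2 rose and 15 fell. The replication partners Uhrf1 and Dnmt1 (-1.49 ± 0.15) and the genes Hmgb2 (-2.63 ± 0.15) and Ezh2 (-1.66 ± 0.22) fell, and the Polycomb genes Ring1 (1.02 ± 0.09) and Cbx7 (0.91 ± 0.10) rose. Clock and hormone response genes were called 8 times higher and 3 times lower among 30, and without normalisation between arrays 1 was higher and 11 were lower. The glucocorticoid target gene Tsc22d3 rose (1.21 ± 0.20), whereas Fkbp5, another such target, fell (-1.57 ± 0.12). Of 18 imprinted genes 2 rose, Gab1 (1.74 ± 0.10) and Nnat (1.16 ± 0.22), and 3 fell, led by Mest (-1.61 ± 0.22). The imprinted shares, 11.1% higher and 16.7% lower, were near those of all tested genes.

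**Figure D5:**
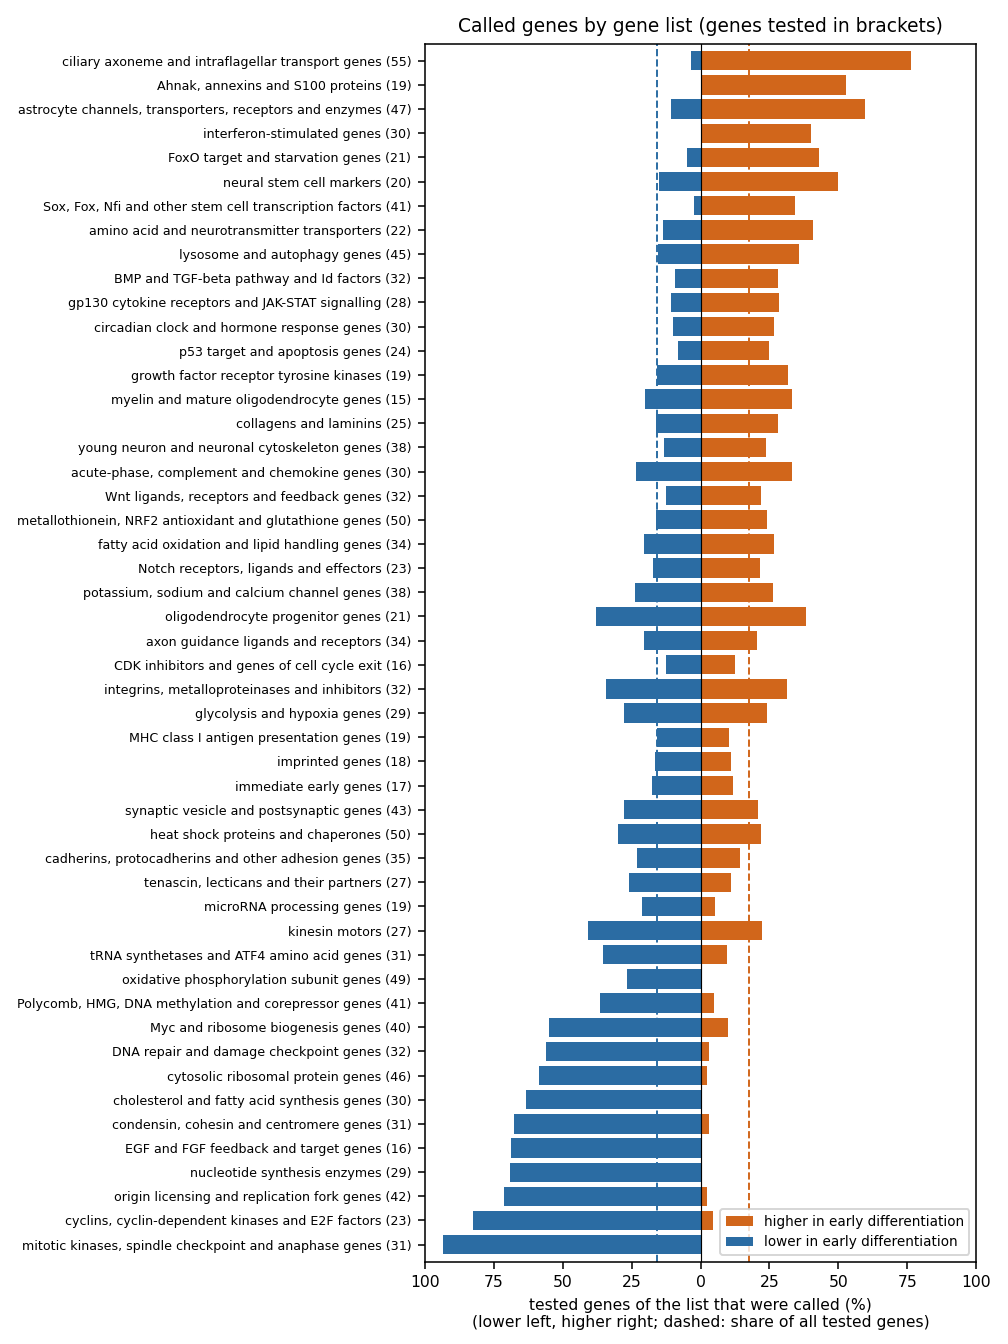
Percent of the tested genes of each list with at least 15 tested genes that were higher (right) or lower (left) in early differentiation than in proliferation. Dashed lines mark the shares over all tested genes, 17.6% higher and 15.8% lower; the cilia list reaches 76.4% higher and the mitosis list 93.5% lower.

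Of 19 tested genes of microRNA processing 1 rose, the helicase gene Ddx17 (1.12 ± 0.09), and 4 fell, Ran (-0.84 ± 0.10), Tarbp2 (-0.67 ± 0.11), Gemin4 (-0.64 ± 0.11) and Ago2 (-0.61 ± 0.10). Without normalisation between arrays 0 were higher and 9 lower. Gemin4 (-0.57) missed 1.5-fold without proliferation replicate 3, and Ago2 (-0.55 each) without that array or early replicate 3. Drosha was at 8.82, 9.14 and 9.42 in early differentiation and 8.85, 8.60 and 9.05 in proliferation, overlapping and not called (0.29 ± 0.16), and Dgcr8 (-0.11 ± 0.09) and Dicer1 (0.16 ± 0.09) were not called. Of the genes the study chose as candidate miR-30 targets, partly on these arrays, 3 of 11 tested rose and 2 fell, and without normalisation between arrays 1 was higher and 5 were lower. Because of that choice the counts are not independent evidence. Osmr, Ifngr1 and Socs3 rose, and Nrp1 (-1.12 ± 0.29) and the CoREST gene Rcor1 (-0.93 ± 0.11) fell. Socs3, at 7.36, 6.81 and 6.96 in early differentiation, against 6.03, 6.07 and 6.34 in proliferation (0.90 ± 0.34), was not called once any 1 of the 6 arrays was left out (0.74 to 1.02). Omg (0.39 ± 0.21), Ppp3r1 (-0.32 ± 0.11), Adgra3 (-0.17 ± 0.11), Runx1 (-0.35 ± 0.21), Khnyn (0.01 ± 0.12) and Kmt2c (-0.02 ± 0.17) were not called. Of genes commonly taken as references Tbp was at -0.11 ± 0.10 and Actb at 0.56 ± 0.10, neither called, and Gapdh fell (-0.74 ± 0.10). Without normalisation between arrays Tbp was at -0.69, Actb at -0.26 and Gapdh at -1.48.

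Where a called gene had a second kept probe, that probe had the same sign for 1342 of 1441 genes (93.1%), and it was called the same way for 836 and the opposite way for 9. Over all kept probes 17 genes had probes called in both directions. In Pkmyt1, a kinase gene that restrains Cdk1, the brightest probe rose (1.90 ± 0.14) and a dimmer one fell (-1.12 ± 0.11). Ptpre (-1.03 ± 0.16 and 1.80 ± 0.19) and Vapb (0.65 ± 0.15 and -1.63 ± 0.15) were split in the same way.

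The log2 fold changes against proliferation at day 7 rest on the same proliferation arrays, with which the day 7 arrays shared a BeadChip, so they are set beside those of day 2 only as values. Cdc20 was at -4.76 at day 2 and -4.53 at day 7. Plk1 was at -4.57 at day 2 and -4.52 at day 7, Enkur at 3.95 at day 2 and 4.24 at day 7, and Ahnak at 6.02 at day 2 and 6.38 at day 7. For these 4 genes the stages differed by less than 0.5 log2 units. Other genes differed between day 7 and day 2 in limma. Igfbp4 was at -3.54 at day 2 and -4.80 at day 7 (day 7 minus day 2 -1.26, adjusted p = 0.00426), Ncan at -1.68 at day 2 and -4.16 at day 7 (-2.48, adjusted p = 0.000132) and Ctsa at 2.81 at day 2 and 4.32 at day 7 (1.51, adjusted p = 0.000739). Lcn2, not called at day 2 (-0.29), was at 4.82 at day 7 (5.10, adjusted p = 0.0044). The values of day 7 against proliferation are thus differences within 1 BeadChip, whereas in those of day 7 minus day 2 the BeadChip and the stage cannot be told apart.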

How the data were processed

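Expression came from 1-colour Illumina BeadChips (MouseWG-6 v2.0) in 9 samples (3 of each stage). Per the labels the authors extracted probe intensities and detection p-values with GenomeStudio. The deposited intensity values used here were neither background-corrected nor normalized, and the detection p-value says how a probe compares with the negative controls on its array. A second deposited table of background-subtracted intensities scaled by 1 factor per array served as an alternative. The methods name a 1.5-fold threshold at p under 0.05 without the test.

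Background was estimated from the detection p-values and corrected with normexp (offset 16) in limma 3.58.1 under R 4.3.3, followed by quantile normalization over all 9 arrays and log2. Of 45281 probes, 19552 were detected (p under 0.05) on at least 3 of the 6 arrays, and 16474 of these carried 1 gene symbol in the platform annotation. The brightest kept probe stood for a gene (10469 genes, 4080 of them with several kept probes). One mean per stage was fitted over the 9 arrays, and p-values were adjusted by Benjamini-Hochberg over all genes. Errors are SE unless stated otherwise, and the precision is limited by 3 arrays per stage. The code was tested on simulated data. No 2 arrays held identical values.

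Genes and gene lists were chosen with earlier results of these data known. Named are the 12 largest changes each way whose arrays do not overlap, up to 5 called genes per list and direction, the stage markers, reference genes, microRNA processing genes and candidate miR-30 targets, and genes whose probes disagree. Further genes of the lists (41 in all, such as Egfr, Cdkn1a, Top2a, Myc and Lcn2) were named after their values were seen. The labels number the replicates without stating a pairing. Deviations of same-numbered early and proliferation arrays from their group means correlated at 0.25, 0.21 and 0.31, against -0.24 to 0.05 for other pairs. Deviations cancel out within a group, so higher values for same-numbered arrays lower those of other pairs. Same-numbered arrays also carried the same array letter (A, B or C) of their BeadChips, so a shared culture and a shared place cannot be told apart. A fit with the replicate number as a block was among the alternatives. Alternatives covered the normalization, background, probe filter, choice of probe, fold threshold, test settings and leaving out each array. Promoter motifs were searched as fixed letters in RefSeq windows (GRCm38.p6).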

Additional observations from a re-analysis of the deposited data

Results flagged for a closer look

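Of the 24 genes with the largest changes, 3 differed between day 7 and day 2 by limma's test of that difference. The difference, day 7 minus day 2, was -1.25 on the log2 scale for Miat (adjusted p = 0.0143), which stood 3.42 above proliferation at day 7 and 4.67 above it at day 2. Fbxo2 differed by -0.73 (adjusted p = 0.0132), with 3.76 at day 7 and 4.48 at day 2. Tnc differed by -1.0 (adjusted p = 0.0197) and was thus lower still at day 7 (-6.06) than at day 2 (-5.07). The day 7 and day 2 arrays lay on separate BeadChips, and the part of the BeadChip in these differences cannot be told apart from that of the stage.

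Probes with no single gene in the annotation are outside the gene counts. Of 3078 such probes that passed the filter, 480 were higher and 445 lower in early differentiation under the same rule. They are not named here.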

How the results depend on the processing

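The counts of genes that rose and fell stayed within 1.5 times their size under all alternatives but a pair. Without normalization between arrays 803 genes were higher and 4314 lower (15.7% of calls higher), and 34 of the 278 called genes named in the text lost their call. Of the 278, 18 lost it with a background offset of 50 and 14 with the mean of a gene's kept probes. The deposited value table cost 6 of them their call, and a threshold of 2-fold 39. With the offset of 50, 20 of the higher or lower counts of gene lists moved by more than 1.5 times. Lists whose balance did not turn also moved without normalization. Lower counts were 20, against 11 with it, for tRNA synthetases and ATF4-dependent genes, 25 against 15 for chromatin, 25 against 15 for chaperones, 14 against 8 for cadherins, 9 against 5 for histones, 5 against 3 for immediate early genes and 5 against 3 for imprinted genes. Higher counts were 4 against 10 for integrins and metalloproteinases, 4 against 9 for synaptic genes, 3 against 6 for kinesins, 3 against 7 for glycolysis and 1 against 2 for MHC class I. With a threshold of 2-fold, 925 genes were higher and 741 lower, and 477 of the 770 called list genes were still called. Leaving out 1 array gave 1658 to 1820 higher and 1536 to 1673 lower genes, of which 50.2% to 54.2% were higher. With the replicate number as a block, 1867 genes were higher and 1686 lower, all 1840 and 1659 of the unblocked calls among them, and no named gene changed its call. Notch1, near 0 in the unblocked fit, was called lower at -0.68 without normalization. A further 10 named genes that were not called with normalization were called without it, so that their lack of a call depends on the scaling.

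Among named genes that still passed the filter, those that lost their call when 1 array was left out were Ago2, Fgfr3, Gadd45b, Gemin4, Jun, Kif23, Phgdh, Socs3 and Xpc, with the values given above. Some named genes were no longer tested once 1 array was left out. Psd2 and Id4, for example, were detected on the 3 early arrays only and had no value without any 1 of these. Their calls were therefore not checked in that way. Kif23 ranged from -4.36 without early differentiation replicate 2 to 0.16 without proliferation replicate 3, because a different probe then stood for the gene. Tk1 ranged from -4.17 without early differentiation replicate 3 to -1.08 without proliferation replicate 3, also by a change of probe. Probes near background have compressed fold changes. Early differentiation lay on 1 BeadChip and proliferation on another, so this comparison has no value within a BeadChip. Day 7 shared a BeadChip with proliferation.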
